A study of Rattus norvegicus with 2 samples.

Results

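Hypothalamic RNA of tickled rats was set against that of rats given no stimulus on 1 two-colour oligonucleotide array, chosen by its label out of the 2 arrays of the study. The rats were male Wistar, 21 days old and newly weaned at the start, and each lived alone in a screened cage. Tickling, a handling that imitates rough play and evokes calls at 50 kHz, was given each weekday for 4 weeks, in bouts of 15 s separated by 15 s of rest, while control rats received none. Tickled RNA carried Cy5 and control RNA Cy3, after amplification from 500 ng of total RNA. The second array set tickled rats (Cy5) against rats given a light touch over the same 4 weeks (Cy3), and its values are given only beside those of the first.

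The labels name 4 animals in each condition and 1 replicate per array. Whether the RNA of several animals was pooled, and whether 1 tickled RNA served on both arrays, is not stated. With 1 array and no dye swap there was no test between the groups. No p-value was computed, and every value below describes this hybridisation alone. Ratios are read as tickled over no stimulus (Cy5 over Cy3), the likely direction from the dye labels. The numerator is not stated, and the other reading would turn every ratio into its inverse. The file holds ratios without signal levels, so hypothalamic identity could not be checked from expression levels, and a difference in the number of cells of a type cannot be told apart from a difference in RNA per cell.

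The hypothalamus is a small, mixed region in which peptide-secreting neurons lie beside the third ventricle. Its magnocellular neurons release oxytocin and vasopressin in the posterior pituitary, its arcuate and lateral neurons control feeding and arousal, and its releasing hormones drive the anterior pituitary. It borders the thalamus above, the preoptic area and cholinergic basal forebrain in front, and the pituitary stalk below.

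The array gave a value for 30904 of 44290 probes, of which 18372 carried 1 gene symbol, for 11881 genes in all. Gene values, which are medians over the probes of a gene, were close to 1 for nearly all genes. The middle 90% ran from 0.85 to 1.27, and the 1st and 99th percentiles were 0.73 and 1.61. More genes lay far above 1 than far below. Genes at a ratio of 2 or more numbered 38, or 0.32% of those measured, and genes at 0.5 or less numbered 12, or 0.101%. At a ratio of 1.5 or more there were 192 genes (1.62%), and 43 genes (0.362%) lay 1.5-fold or more below 1. In all, 51.8% of genes were above 1 and 45.1% below. Probes whose platform number lies in the first or last 10% are called outer (20% of numbers) and the others middle (80%), since high ratios were concentrated in the outer part, as described further on.

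**Figure D1:**
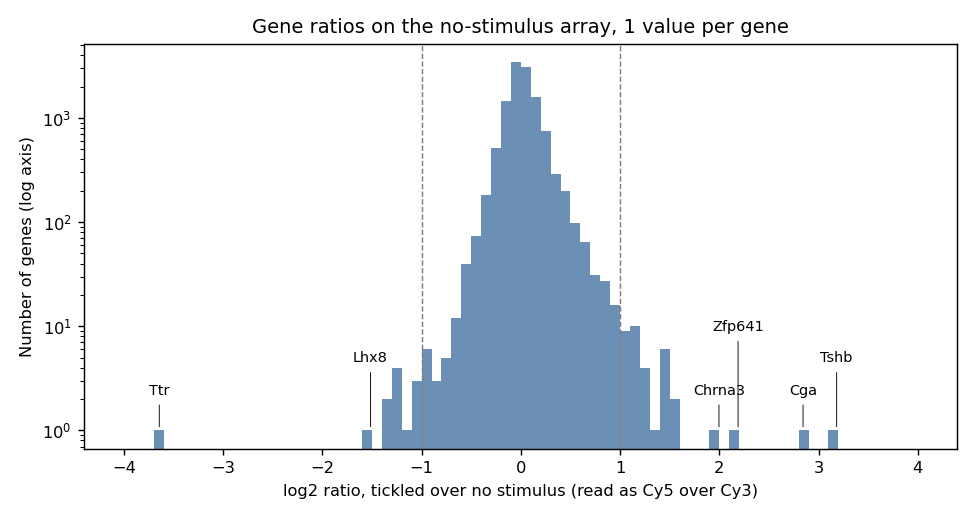
Histogram of the log2 ratio of tickled over no stimulus for the 11881 genes with a value, with the number of genes on a log axis. Dashed lines mark ratios of 0.5 and 2, and labelled genes are Ttr at 0.08 and Lhx8 at 0.35 on the left and Chrna3 at 3.99, Zfp641 at 4.56, Cga at 7.18 and Tshb at 9.08 on the right.

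The highest gene medians belonged to both subunits of thyrotropin, the hormone that drives the thyroid gland and, when released from the pars tuberalis of the pituitary stalk, also acts on the ependyma of the hypothalamus. Tshb, the beta subunit, was at 9.08 from 1 probe. The alpha subunit Cga, common to the glycoprotein hormones, had a ratio of 7.18 from 2 probes that read 2.76 and 18.68. The 2 probes of Cga were both high but differed from each other by more than 2-fold, and the one at 18.68 is outer. By its middle probe alone Cga, at 2.76, was below Zfp641, Chrna3, Or1j15b, Angptl1 and Msc, each of which rests on 1 outer probe. Against light touch the same genes were near 1, at 1.08 for Tshb and 0.89 and 0.78 for the probes of Cga.

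The sequences around the start sites of Tshb and Cga are shown because these genes form 1 hormone and had the 2 highest gene medians. Each runs from 250 bases before to 50 after the start in RefSeq's GRCr8 build, 5′ to 3′, at chr2:192918005-192918304 (minus strand) and chr5:54283090-54283389 (plus strand). Capitals mark matches on either strand to 2 short motifs. The first was TATAAA, the core of the promoter element bound by TBP. The second was GATAAG, a core recognised by GATA2, a factor of thyrotrophs.
Tshb: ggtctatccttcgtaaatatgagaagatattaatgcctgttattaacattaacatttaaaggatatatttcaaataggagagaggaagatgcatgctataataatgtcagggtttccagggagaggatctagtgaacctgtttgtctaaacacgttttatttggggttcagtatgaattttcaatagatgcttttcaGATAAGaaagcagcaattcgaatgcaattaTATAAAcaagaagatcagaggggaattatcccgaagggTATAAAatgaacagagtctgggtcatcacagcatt
Cga: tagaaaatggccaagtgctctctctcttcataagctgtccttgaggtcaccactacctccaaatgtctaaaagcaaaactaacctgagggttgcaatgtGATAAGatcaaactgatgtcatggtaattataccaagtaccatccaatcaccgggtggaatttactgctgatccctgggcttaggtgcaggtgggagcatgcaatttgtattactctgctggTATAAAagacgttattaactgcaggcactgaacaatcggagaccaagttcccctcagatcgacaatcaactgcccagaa
Tshb held 2 matches to TATAAA and Cga 1, and each held 1 match to GATAAG, with no overlap between matches. Among 33469 rat promoters of the same length, 14.2% held TATAAA and 7.05% GATAAG. A match describes the letters and shows no bound factor.

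Other genes of the anterior pituitary were much closer to 1. Growth hormone (Gh1) had a ratio of 1.73, luteinizing hormone beta (Lhb) 1.13, the corticotroph factor Tbx19 1.12, the receptor Ghrhr 1.10, and the pituitary factors Pitx1 and Lhx3 1.09 and 1.06. The thyrotropin-releasing hormone receptor Trhr, which marks thyrotrophs, was at 0.80. Prolactin (Prl), Fshb and Pou1f1 had no value on this array. Of the 9 anterior pituitary markers with a value, 3 were at 1.5 or more and 8 above 1, and the list's median log2 ratio was 0.16 beside 0.01 over all genes. The hormone genes Tshb, Cga and Gh1 made up the 3, where 1.62% of all genes reached 1.5, and Gh1 rests on 1 outer probe. With middle probes alone 2 of 8 did, whereas the 1.62% counts all probes. Markers linked to the pars tuberalis other than Tshb and Cga were near 1, with Eya3 at 1.09, Chga at 1.01 and the clock gene Timeless at 0.97, while the melatonin receptor Mtnr1a had no value. How far pituitary tissue enters the values of Tshb and Cga was not tested.

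At the low end, transthyretin (Ttr), the carrier of thyroid hormone made in the choroid plexus, had a ratio of 0.08. Values were deposited to 2 decimals, so that this ratio may lie between 0.075 and 0.085. It rests on 1 probe, and another probe of Ttr had no value. Against light touch Ttr was at 0.39. The next choroid plexus markers were well above it. Sostdc1, an inhibitor of BMP and Wnt signals, was at 0.55, coagulation factor F5 at 0.60, the prolactin receptor Prlr at 0.71 and the potassium channel Kcnj13 at 0.73. The remaining markers lay between 0.82 for Steap1 and 1.29 for Col8a1, including Folr1 at 1.10, Aqp1 at 1.02, Otx2 at 1.04 and Kl at 0.89. Of 20 choroid plexus markers with a value, 12 were below 1 and 3 were 1.5-fold or more below. Among all genes these shares were 45.1% and 0.362%. The list's median log2 ratio was -0.02. The gap between Ttr and the next marker was the widest in the list. The part that choroid plexus left on the tissue plays in its ratio was not tested.

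Thyroid hormone genes spanned the whole range of the array while most of them stayed near 1. Of 26 with a value, 3 were at 1.5 or more (Tshb, Cga and the deiodinase Dio1, at 1.75 from 1 outer probe). Another 2 were 1.5-fold or more below (Ttr and Dio3). Such ratios were reached by 1.62% and 0.362% of all genes, and the list's median log2 ratio was -0.04. Dio3 inactivates thyroid hormone, and its gene value of 0.427 came from 2 probes at 0.21 and 0.87. Light touch gave no value for the probe at 0.21, so the ratio of 2.46 there came from the other probe, which lies in the outer 20% of probe numbers. Dio2, which activates the hormone in tanycytes, was at 0.94, and the releasing hormone Trh was at 0.81.

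Genes of cholinergic neurons and of the basal forebrain supplied 5 of the 12 genes at 0.5 or less. The vesicular acetylcholine transporter Slc18a3 had a ratio of 0.43 and the choline transporter Slc5a7 one of 0.49. The LIM homeobox factors Lhx8 and Lhx6, which specify forebrain cholinergic neurons and interneurons, were at 0.35 and 0.50. The neurotrophin receptor Ngfr, a marker of basal forebrain cholinergic cells, was at 0.45. Each rested on 1 probe from the middle 80% of probe numbers. Slc10a4, an orphan carrier of cholinergic and monoamine vesicles that was not in this list, was the next lowest of the solute carriers, at 0.55.

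Of the list's 13 members with a value, 8 were below 1, beside 45.1% of all genes, with a median log2 ratio of -0.27. At 0.5 or less there were 5, beside 0.101% of all genes. None was 1.5-fold or more above 1, where 1.62% of all genes were. Isl1 was at 0.80 and the peptidase gene Ecel1 at 0.83. Others lay close to 1, with acetylcholinesterase (Ache) at 1.03, the muscarinic receptor Chrm2 at 1.04, galanin (Gal) at 1.03 and Nkx2-1 at 0.97. The highest members were Zic4 at 1.16, from 2 probes at 0.97 and 1.39, and Pkp2 at 1.09. Choline acetyltransferase was not analysed here. On the light-touch array Slc18a3 and Slc5a7 were at 0.45 and 0.38, and Lhx8, Ngfr, Lhx6 and Slc10a4 at 0.61, 0.77, 0.85 and 1.0. That array also carried tickled RNA, possibly the same, so it cannot be taken as an independent repeat.

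The LIM homeobox family as a whole ran from Lhx8 to Lhx9, at 1.54. Of its 9 measured members, 6 were above 1, beside 51.8% of all genes. The 6 included Lmx1a at 1.26, Lhx2 at 1.20 and Lhx1 at 1.16. Lhx6, Lhx8 and Isl1 were the members below 1. Gonadotropin-releasing hormone (Gnrh1), made by scattered preoptic neurons, had a ratio of 0.38 from 1 probe, and 0.91 against light touch. A second probe of Gnrh1 had no value.

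Markers of the thalamus made up the list farthest above 1 among the region and cell type lists. Its 12 members with a value were above 1 without exception, 5 of them at 1.5 or more (1.62% of all genes were), and the median log2 ratio was 0.48. The protein kinase Prkcd had a ratio of 2.42, the homeobox factor Shox2 2.32, the receptor partner Ramp3 2.01, the Wnt effector Tcf7l2 1.78 and the axon guidance gene Ntng1 1.71. The probes agreed in direction. Shox2 read 1.97 and 2.74, Ntng1 1.64 and 1.78, and Tcf7l2 1.38, 1.78 and 1.85. With only the middle 80% of probe numbers the median stayed at 0.48.

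The remaining thalamic genes formed a gradual series below these. Gbx2 was at 1.44, Lef1 at 1.35, Plekhg1 at 1.29, the glutamate transporter Slc17a6 at 1.18, Calb2 at 1.16, Zic1 at 1.15 and the serotonin transporter Slc6a4 at 1.01. On the light-touch array the list had the opposite sign. Its median log2 ratio there was -0.90, with 10 of the 12 members below 1 and 2 above. Over all genes on that array 46.1% were below 1 and 51.3% above. Prkcd was at 0.44, Shox2 at 0.383, Ramp3 at 0.49, Tcf7l2 at 0.53 and Ntng1 at 0.60. Chrna3, a nicotinic subunit typical of the habenula beside the thalamus, was likewise high against no stimulus, at 3.99, and low against light touch, at 0.18. Its 1 probe lies in the outer 20% of probe numbers. The partner subunit Chrnb4 was at 1.01 and Htr5b, another habenular gene, at 1.09, so the habenula list had a median of 0.08 over 7 members. With light touch as reference Chrnb4 was at 0.60 and Htr5b at 0.28. The list's median there was -0.25, with 4 of 7 members below 1. The share of thalamic tissue in each dissection was not measured.

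Markers of other neighbouring tissues spread less. Striatal genes were below 1 in 9 of 12, beside 45.1% of all genes, with a median log2 ratio of -0.16. The dopamine receptor Drd1 was at 0.75, the signalling genes Rgs9 and Gng7 at 0.81 and the adenosine receptor Adora2a at 0.83 on both of its probes. Foxp1, Ppp1r1b and Rarb were above 1, at 1.27, 1.14 and 1.05. None of the 12 was 1.5-fold from 1, where 98.0% of all genes lay within 1.5-fold. Cortical and hippocampal genes had a median of 0.04 over 12 members, from Tbr1 at 0.71 to the vesicular glutamate transporter Slc17a7 at 1.64. Tbr1 and Slc17a7 were at 0.85 and 0.31 against light touch. Over all genes against no stimulus 51.8% were above 1. Genes of meninges and fibroblasts were above 1 in 18 of 20, with a median of 0.23. None was at 1.5 or more, beside 1.62% of all genes. Tanycyte and ependymal genes were above 1 in 16 of 17, with a median of 0.19. Their highest members were Fndc3c1 at 1.70, from 1 outer probe, and the tanycyte factor Rax at 1.52, and Dio2 was the member below 1.

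**Figure D2:**
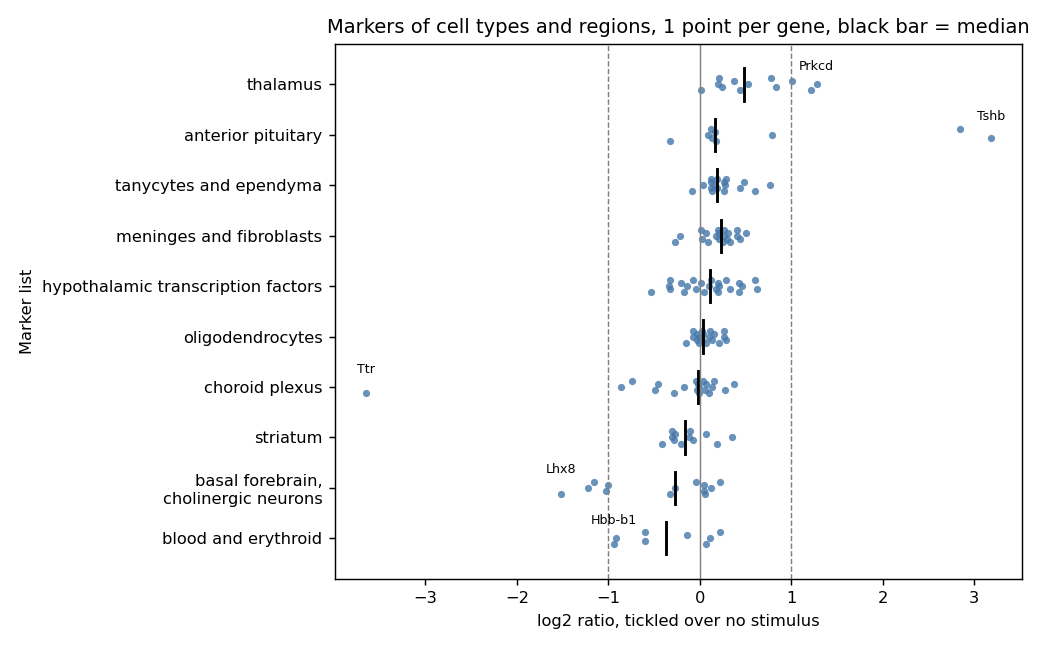
Log2 ratio of tickled over no stimulus for markers of 10 cell types and regions, with 1 point per gene and a black bar at the list's median. Thalamic markers sit at or right of 0 with a median of 0.48. Ttr lies far from the rest of its list, as do Tshb and Cga in the anterior pituitary list. The basal forebrain list divides into 5 genes at 0.5 or less and a group around 1.

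Among blood genes, the globins and Alas2 were low. Globins Hbb-b1 and Hba-a3 had ratios of 0.52 and 0.53, and the probes of Hbb read 0.50 and 0.87. The erythroid enzyme Alas2, the first step of haem synthesis in red cells, was at 0.66. These 4 genes were the 4 of 8 measured members that lay 1.5-fold or more below 1, beside 0.362% of all genes. The list's median log2 ratio was -0.37. Not all red cell genes shared the direction, since the anion exchanger Slc4a1 was at 1.16 and the globin chaperone Ahsp at 1.08. Against light touch Hbb-b1 was at 0.72, Hba-a3 and Hbb at 0.70 and Alas2 at 0.79. Slc4a1 and Ahsp were there at 1.11 and 1.15. Globin genes are close copies, so their probes cannot be taken to separate them, and the blood content of the samples was not measured.

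Resident glia and vessels were near 1. Astrocyte genes were above 1 in 13 of 15, beside 51.8% of all genes, and ran from Glul at 0.98 to Slc1a2 at 1.18. Their median log2 ratio was 0.07. Oligodendrocyte genes had 0.03 over 19, from Aspa at 0.90 to Sox10 at 1.22, and microglial genes 0.02 over 13, from Trem2 at 0.89 to Cd68 at 1.17. In these 3 lists no gene was 1.5-fold from 1, where 98.0% of all genes lay within 1.5-fold. Endothelial and mural genes had a median of 0.12, with 13 of 15 above 1, beside 51.8% of all genes. Cnn1 was highest, at 1.61, from 2 probes at 1.16 and 2.23, 1 of them outer.

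Among the hormones of the magnocellular neurons, vasopressin was low on both probes. The probes of Avp read 0.47 and 0.55, and its neighbour oxytocin (Oxt) had a ratio of 0.67 from 1 probe in the outer 20% of probe numbers. Against light touch both were above 1, at 1.11 and 1.12. Avp and Oxt are adjacent genes that face each other, with no annotated gene between them in GRCr8. The sequences around their start sites are given, over the same window as above, to show how far the start regions of this pair of low genes resemble each other. They lie at chr3:138248473-138248772 (minus strand) and chr3:138235504-138235803 (plus strand), and capitals mark matches on either strand to TGACC, a nuclear receptor half-site, and CACGTG, an E-box.
Avp: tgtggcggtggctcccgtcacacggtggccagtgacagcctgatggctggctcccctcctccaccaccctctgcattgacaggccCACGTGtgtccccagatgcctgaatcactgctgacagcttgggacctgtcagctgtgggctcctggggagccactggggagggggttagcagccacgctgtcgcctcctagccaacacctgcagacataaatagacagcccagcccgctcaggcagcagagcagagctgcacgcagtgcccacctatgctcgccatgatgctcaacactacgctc
Oxt: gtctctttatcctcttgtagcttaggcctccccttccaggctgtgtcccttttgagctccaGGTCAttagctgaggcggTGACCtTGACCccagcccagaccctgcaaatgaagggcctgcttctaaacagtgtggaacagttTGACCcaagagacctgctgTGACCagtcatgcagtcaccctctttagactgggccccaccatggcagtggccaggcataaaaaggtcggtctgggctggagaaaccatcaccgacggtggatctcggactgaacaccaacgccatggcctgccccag
Oxt held 5 matches to TGACC and Avp 0, while Avp held 1 match to CACGTG and Oxt 0, with no overlap between matches. TGACC occurred in 40.5% and CACGTG in 6.42% of the 33469 promoters. The absence of a match says only that these letters are not in the window.

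Arcuate peptides, which regulate feeding and reproduction, lay mostly above 1. Of 9 with a value 8 were above 1 and 2 at 1.5 or more, beside 51.8% and 1.62% of all genes. The list's median log2 ratio was 0.19. Galanin-like peptide (Galp) had a ratio of 1.93, the melanocortin precursor Pomc 1.62, Agrp 1.35 and Cartpt 1.32. Kiss1 and Npy were both at 1.14, Ghrh at 1.13, and the neurokinin gene Tac3 at 0.97. The appetite-stimulating Agrp and the appetite-suppressing Pomc and Cartpt were thus on the same side of 1. The corresponding ratios against light touch were 2.14 for Galp, 2.13 for Pomc, 1.80 for Agrp and 1.94 for Cartpt.

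The lateral hypothalamic peptides were divided. Melanin-concentrating hormone (Pmch) had a ratio of 1.41 and orexin (Hcrt) 1.38, whereas neurotensin (Nts) read 0.69 and 0.70 on its 2 probes and dynorphin (Pdyn) was at 0.88. Among peptides of the suprachiasmatic nucleus, the seat of the circadian clock, Vip was at 2.24 from 1 probe and Grp at 1.06. Avp, the third measured member of that list, was at 0.508. Releasing hormones other than Gnrh1 lay between Trh and somatostatin (Sst), at 1.17, with Crh at 0.85. Cholecystokinin (Cck) was the highest of 21 other peptide genes, at 1.94, and Edn3 the lowest, at 0.74. The median log2 ratio of these 21 was 0.01. Cck and Edn3 were at 0.51 and 0.78 against light touch. Among the arcuate and lateral peptides named, Nts and Ghrh had 2 probes with a value and the others 1.

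Receptors for peptides and hormones stayed near 1 as a list, with 22 of 48 above 1 and a median log2 ratio of -0.01. The 3 at 1.5 or more were the natriuretic peptide clearance receptor Npr3 at 1.64, the insulin receptor Insr at 1.56 and the leptin receptor Lepr at 1.52, or 6.25% of the list beside 1.62% of all genes. Npr3 and Insr rest on 1 outer probe each. With middle probes alone 1 of 38 was at 1.5 or more and 12 were above 1, whereas the shares of all genes count all probes. The lowest was Prlr. Hypothalamic transcription factors had a median of 0.11, with 15 of 24 above 1, beside 51.8% of all genes. Lhx9 and Rax were the 2 members at 1.5 or more, and were at 0.42 and 1.67 against light touch. Sim1, which specifies the paraventricular and supraoptic neurons that make Oxt and Avp, was lowest, at 0.69.

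Receptor families of the classical transmitters had few members far from 1. Of 9 AMPA and kainate subunits 8 were below 1, from Gria1 at 0.785, with probes at 0.77 and 0.80, and the exception was Grik3 at 1.21. Serotonin receptors were below 1 in 8 of 10, all between Htr3b at 0.87 and Htr5b at 1.09. Over all genes 45.1% were below 1. The median log2 ratios of these 2 families were -0.09 and -0.13. NMDA subunits lay on both sides, from Grin3a at 0.91 to Grin2a at 1.35. Metabotropic glutamate receptors ran from Grm5 at 0.94 to Grm4 at 1.46, and GABA-A subunits from Gabre at 0.74 to the extrasynaptic subunit Gabrd at 1.58 from 1 outer probe. Apart from Chrna3, nicotinic subunits ran from Chrna7, at a ratio of 1, to Chrna4 at 1.43. Among 72 potassium channel genes 36 were above 1 and 35 below. Kcna2, at 1.57, was the 1 gene at 1.5 or more, or 1.39% beside 1.62% of all genes. Voltage-gated calcium channel genes divided evenly, 11 above 1 and 11 below, with Cacna2d2 lowest at 0.74.

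Genes of GABA synthesis, transport and GABA-B reception were above 1 in 4 of 9, beside 51.8% of all genes. Their median log2 ratio was -0.03. The lowest were the vesicular transporter Slc32a1 at 0.74 and the synthesis enzymes Gad2 at 0.79 and Gad1 at 0.82. The degrading enzyme Abat was at 0.96 and the synaptic scaffold gene Gphn at 0.98. The uptake transporters Slc6a13 and Slc6a11 were at 1.11 and 1.05, and the receptor subunits Gabbr2 and Gabbr1 at 1.09 and 1.04. Dopamine genes had a median log2 ratio of 0.03 over 14 members, with Drd1 lowest and Foxa2 highest, at 1.34. The 6 measured genes of D-amino acid metabolism and transport ran from Shmt1 at 0.93 to Slc1a5 at 1.11, apart from the oxidase Dao, at 2.64 from 1 probe in the outer 20% of probe numbers. Serine racemase (Srr), which makes the D-serine that Dao degrades, was at 1.04.

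Immediate early genes, which mark recent neuronal activity, had no member 1.5-fold from 1 among 22 with a value. Of all genes 98.0% also lay within 1.5-fold of 1. The immediate early genes ran from Junb at 0.85 to Arc at 1.39, with a median log2 ratio of 0.03. Clock genes ran from Bmal1 at 0.83, on probes at 0.82 and 0.84, to its output gene Dbp at 1.46. The stress axis list was centred on 1, with 8 members above and 8 below. Chaperones were below 1 in 23 of 31, beside 45.1% of all genes, with a median of -0.07. They ran from Hspa1a at 0.689 to its relative Hspa1l at 1.91 from 1 outer probe.

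Some large housekeeping families had a small SD and others a larger one. Cytosolic ribosomal protein genes had an SD of 0.08 log2 units over 69 genes, ATP synthase subunits 0.09 over 18, proteasome subunits 0.09 over 37 and complex I subunits 0.11 over 31. The SD over all genes was 0.20. In these 4 families no gene was 1.5-fold from 1, where 98.0% of all genes lay within 1.5-fold. Mitochondrial ribosomal proteins had an SD of 0.19 over 70 genes, with 2 at 1.5 or more, beside 1.62% of all genes. The 2 were Mrps10 at 2.15, from 1 outer probe, and Mrpl50 at 1.58, from probes at 1.0 and 2.49. The quartiles of this family, at -0.06 and 0.05 log2 units, were close to those of cytosolic ribosomal proteins, at -0.06 and 0.04. Splicing factors of the Prpf, Srsf and Sf3 groups had an SD of 0.29 over 30 genes, which included Prpf31. Their quartiles were -0.09 and 0.07. The proteasome leaned below 1, with 25 of 37 below, beside 45.1% of all genes, and a median of -0.04. The share of probes with a value was 98.5% for cytosolic ribosomal proteins and 100% for ATP synthase subunits.

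Families with few measured probes were not alike. Odorant receptors, which detect smells in the nose, had a value for 29.7% of their probes, and 769 of the receptors named on the platform had none. The 326 with a value had a median log2 ratio of 0.10 and an SD of 0.29, with 225 (69.0%) above 1 and 18 (5.52%) at 1.5 or more, beside 51.8% and 1.62% of all genes. With middle probes alone, 6 of 262 were at 1.5 or more, whereas the 1.62% counts all probes. The most distant were Or1j15b at 2.90, Or13p4 at 2.76, Or10g1b at 2.73 and Or10j7 at 2.04 on one side and Or1i2 at 0.40 on the other. The first 4 rest on outer probes. Cytochromes P450 had a value for 44.0% of probes and were above 1 in 29 of 37. Serpins, with a value for 41.8% of probes, were above 1 in 7 of 19 and had a median of -0.09. Keratins, with 41.3%, had a median of 0.03 over 17 genes. Trace amine receptors and Hox genes had 5 measured members each, with an SD of 0.11 and 0.16. Collagens, measured at 65.3% of probes, were above 1 in 19 of 21 without any at 1.5 or more, with Col1a1 highest at 1.32.

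**Figure D3:**
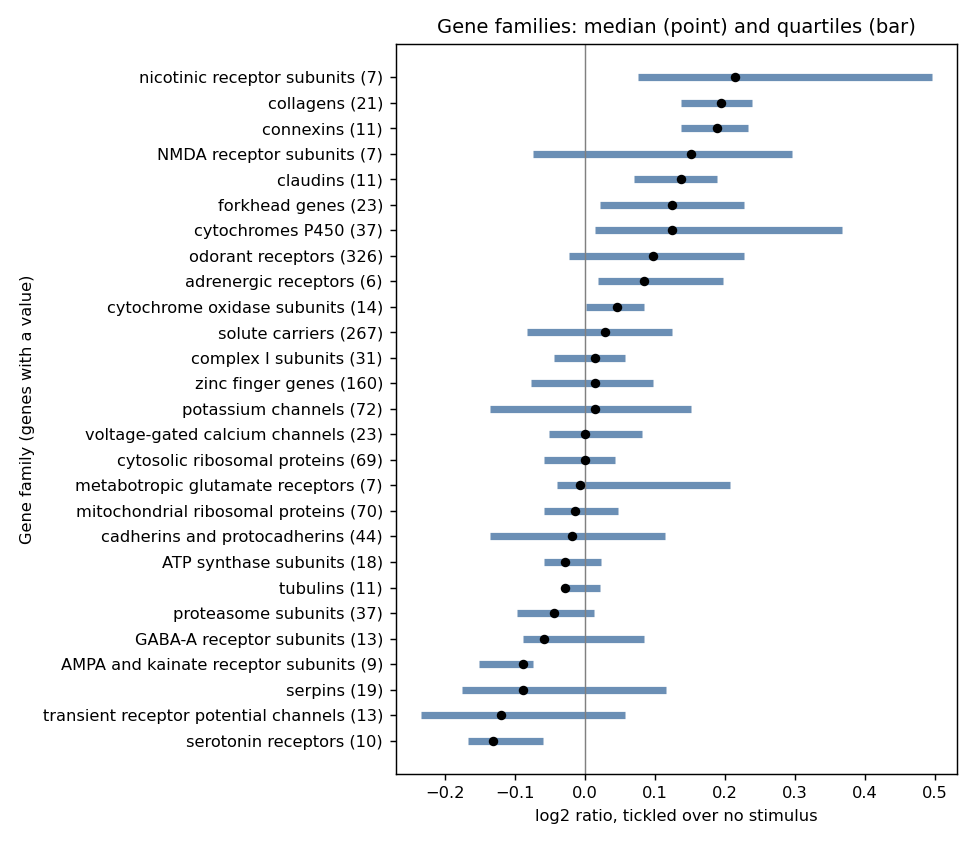
Median log2 ratio of tickled over no stimulus (point) and quartiles (bar) for 27 gene families, with the number of genes measured in brackets. Ribosomal, proteasome and ATP synthase genes have short bars near 0, nicotinic subunits, collagens and connexins lie to the right, and serotonin receptors lie to the left.

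How well probes of 1 gene agreed gives the only measure of precision within the array, and it leaves out variation between animals. Over 4354 genes with 2 or more probes the pooled SD between probes was 0.18 log2 units, or 1.13-fold, and 94.2% had all probes within 1.5-fold of each other. Genes far from 1 were seldom among them. Of all genes 36.6% had several probes, but of the 38 genes at 2 or more only 5.26% did (Cga and Shox2), and of the 12 at 0.5 or less 16.7% did (Dio3 and Lnx1). A ratio of 1.5 or more was reached by 2.32% of genes with 1 probe and by 0.390% of genes with several. A median over several probes is moved less by 1 stray probe, so these shares are not directly comparable. The gene Lnx1 read 1.03 and 0.24, so its value of 0.497 rests on 1 of 2 probes.

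Complete agreement at 1.5-fold, with every probe of a multi-probe gene on 1 side, occurred in 5 genes. They were Cga, Shox2, Ntng1, the Wnt modulator Sfrp2 and Avp. Sfrp2 had the highest value among genes with at least 3 probes, with probes at 1.71, 1.87 and 1.96, and was at 1.10 against light touch. Next came Tcf7l2 and the secreted glycoprotein gene Dkk3, whose middle probes read 1.11 and 1.22 and whose outer probes read 2.17 and 2.50. The phosphatase gene Ptpn4 followed, on 4 probes between 1.28 and 1.59. Kit ligand (Kitlg) had middle probes at 1.38 and 1.41 and an outer probe at 1.75. The lowest genes with at least 3 probes were nearer to 1. Cnot6l was at 0.63 with 1 discordant probe at 0.96, guanine deaminase (Gda) at 0.744, the protease inhibitor Cst3 at 0.75, the matrix protein gene Reln at 0.753 on 4 probes between 0.70 and 0.90, and Eml4 at 0.78.

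**Figure D4:**
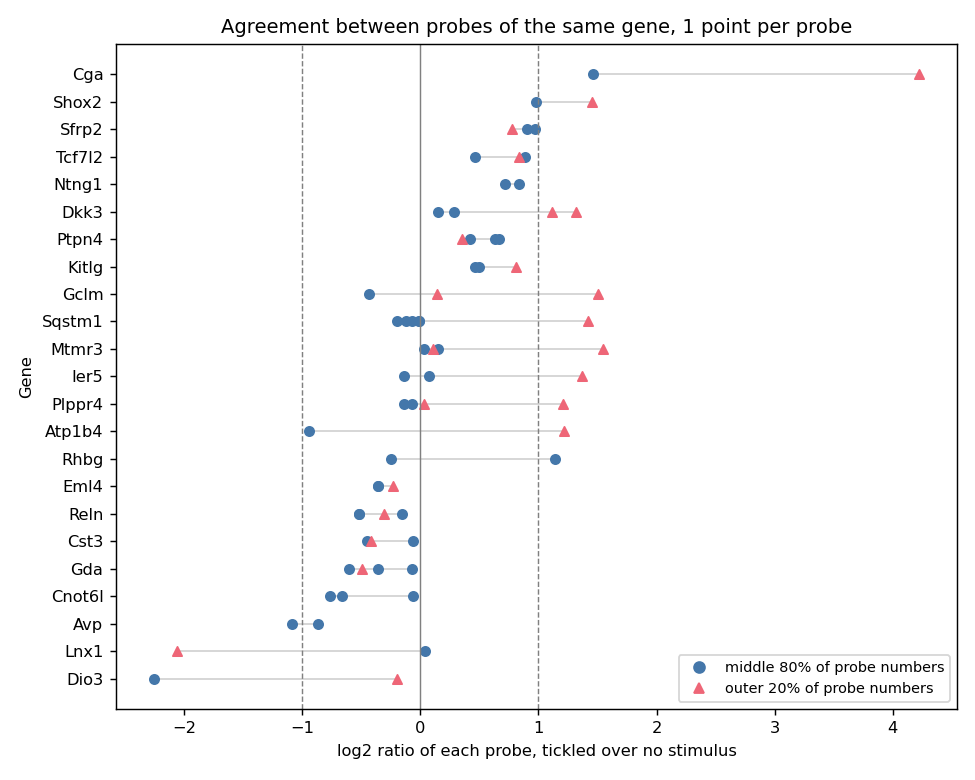
Log2 ratio of each probe for 23 genes with several probes, with circles for the middle 80% and triangles for the outer 20% of probe numbers. Probes of Sfrp2, Ntng1 and Avp lie close together, while in Gclm, Sqstm1, Mtmr3, Ier5 and Plppr4 1 outer probe lies far to the right of the others.

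Disagreement between probes varied with the place of a probe in the platform's numbering. The first and last 10% of the probe numbers, the outer part, held 57 and 48 of the 140 probes at 2 or more. Whether numbers follow the layout of the slide is not stated. Of the 52 genes whose probes differed by 2-fold or more, 35 had their highest probe in the outer 20% of numbers and 5 their lowest. The 1693 genes with probes in both parts were higher in the outer part in 1081 cases and lower in 581, by a median of 0.06 log2 units. Within the outer part the probe SD was 0.22, and within the middle part 0.16. Sqstm1, an autophagy receptor, shows the pattern in 1 gene, since 5 probes read between 0.87 and 0.99 and the outer one 2.67. The glutathione synthesis gene Gclm read 0.74, 1.10 and 2.84, the last 2 from the outer part.

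**Figure D5:**
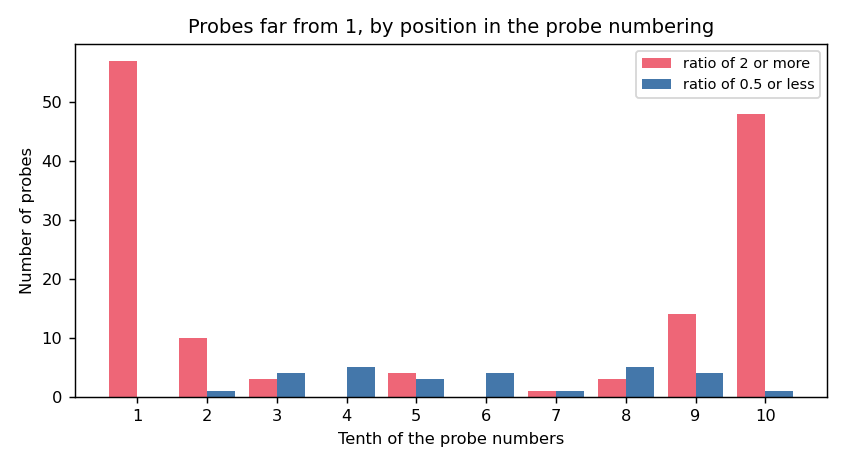
Number of probes with a ratio of 2 or more and of 0.5 or less in 10 consecutive bands of the platform's probe numbers. High ratios are concentrated in the first band (57 probes) and the last band (48 probes), while the bands hold at most 5 low ratios each.

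Counting probes with a value, 26 of the 38 genes at 2 or more had outer probes alone, and 0 of the 12 at 0.5 or less did. Of the 38, Tshb, Vip, Prkcd and Ramp3, described above, had no outer probe with a value. The same held for the cell surface proteoglycan Sdc1 at 2.26, Clrn1 at 2.25, the lens galectin-related gene Grifin at 2.18, St6galnac2 at 2.16, the actin-binding gene Nexn at 2.13 and Garnl3 at 2.02. Vip, Sdc1 and Nexn each have an outer probe that gave no value. Grifin, Nexn and Sdc1 were below 1 against light touch, at 0.43, 0.53 and 0.68. Cga and Shox2 had 1 probe in each part.

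In the other high genes the probe with a value was outer, and in Akr1c13 and Tdo2 a middle probe gave no value. Transcription regulators among them were Zfp641 at 4.56, Msc at 2.82, Dpf3 at 2.68, Maff at 2.29, the interferon regulator Irf2 at 2.10, Bcl3 at 2.11 and Zbtb26 at 2.0. Enzymes were Dao, the deubiquitinase gene Otub2 at 2.66, Smpdl3b at 2.45, Akr1c13 at 2.21, Cyp2u1 at 2.06 and the tryptophan dioxygenase Tdo2 at 2.03. The others were Chrna3, the 4 odorant receptors, Angptl1 at 2.84, Gramd1c at 2.50, the ciliary gene Evc2 at 2.32, Trim40 at 2.28, the spindle gene Tacc3 at 2.17, Mrps10 at 2.15, Serinc2 at 2.04 and the apoptotic nuclease Dffb at 2.0. Among low genes, 2 are not yet described. Prpf31 encodes a component of the spliceosome and Ccdc77 a coiled-coil protein, and each was at 0.42 from 1 middle probe. Against light touch they were at 0.36 and 0.35.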

How the data were processed

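The data are 1 series table with 2 columns, each the deposited linear ratio of the 2 dyes per probe, to 2 decimals. The median ratio of 1.0 is as the authors deposited it. Labelling follows the labels' protocols. Scanner, background correction, normalization, the rule for empty probes and numerator: not given in the sources used here. Depth and signal were not at hand, and the number of arrays limits the precision.

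Of 44290 probes, 23535 had 1 symbol in the platform annotation, 48 several and 20707 none. Probes with several named no gene. Entrez identifiers of 23488 probes matched RefSeq's GRCr8 gene table, used for names, and 1 symbol changed. Log2 ratios were summarised by gene as medians and counted by size, with Python 3.11.15 and pandas 2.3.3, in code tested on simulated data. No test was possible with 1 array a group.

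The members, the 45 gene lists and the 55 families, defined by symbol patterns, were chosen with earlier results of these data known. Family patterns were corrected for misplaced names after the values were seen. Genes were named by rule, which took those past 2-fold, those with several probes all 1.5-fold one way, the 10 widest probe ranges, the 5 highest and 5 lowest with 3 or more probes, and list extremes, members 1.5-fold from 1 and members of small lists. A few list members given as examples fall outside it. Alternatives changed the probe summary, the probes used, the centring, the gene filter and the symbols.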

Additional observations from a re-analysis of the deposited data

How the results depend on the processing

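Leaving out the first and last 10% of probe numbers gave 12 genes at 2 or more in place of 38, and 119 genes at 1.5 or more in place of 192. The 2 counts below 1 stayed within 1.5 times of the main counts under the 6 alternatives, at 10 to 12 genes and 36 to 46 genes. The same step left Lnx1 at a log2 ratio of 0.043 in place of -1.01, as did taking the probe nearest 1, because its other probe read 1.03. With the running median over neighbouring probe numbers subtracted, genes at 2 or more numbered 32, and with genes measured on both arrays 29. Of 452 named genes, 26 others moved by more than the spread between probes when the probe nearest 1 was taken and 6 with the mean of probes. Of the 363 that kept a middle probe, 13 others moved. The magnocellular median was -0.98 with the middle probes, since Oxt has 1 outer probe, and the lateral hypothalamic median -0.18, without Pmch. Cga had a log2 ratio of 1.46 in place of 2.84 with its middle probe. The blood median was -0.60 with the middle probes and -0.13 with the probe nearest 1. No paired analysis was possible because each comparison has 1 array. Without signal levels, low-intensity probes could not be told from bright ones.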

Other observations

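Probes without a single gene symbol also held ratios far from 1. Of 12532 with a value, 69 (0.551%) were at 2 or more and 9 (0.0718%) at 0.5 or less, against 71 (0.386%) and 19 (0.103%) of the 18372 named probes. The lowest of them read 0.13 against no stimulus and 0.12 against light touch. The highest read 4.35. Of the 69 high ones, 54 lay in the outer 20% of probe numbers.

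Genes of interferon response and antigen presentation were above 1 in 20 of 26, with a median log2 ratio of 0.17, where 51.8% of all genes were above 1. The 3 at 1.5 or more were Trim40, Irf2 and the interferon-induced Ifit3, at 1.57, and the first 2 rest on outer probes. Connexins, the gap junction subunits, were above 1 in 10 of 11, led by the vascular Gja5 at 1.78 from 1 outer probe. Forkhead factors were above 1 in 18 of 23 and ran up to Foxp2, at 1.46. Endocannabinoid genes ran from the receptor Cnr1 at 0.88 to the synthesis enzyme Dagla at 1.24.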
